A study of Mus musculus with 9 samples.

Results

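A set of 5 genes of the NKG2D system were described in mouse jejunum: 4 ligand genes, Raet1e, H60b, H60c and Ulbp1, and the receptor gene Klrk1. They were picked by symbol from the 21868 genes of the deposited count table, after their values in these libraries were known, so their levels and fold changes are given as a description with no test. Of the 5, 4 had enough reads for the model fitted across all genes, and H60c did not. The data were 9 bulk RNA-seq libraries of jejunal tissue, 3 each from mice given TPN (total parenteral nutrition, in which nutrients are infused into a vein and bypass the gut), starved mice and sham-treated mice. Each treatment lasted 24 h, after which a 5 cm piece of jejunum was taken and cut open along its length. The sources used here do not give strain, sex, age or genotype. The labels name biological replicates without stating that each was a separate mouse; if they were not, the spread behind the p-values could be technical.

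NKG2D, the product of Klrk1, is an activating receptor of natural killer (NK) cells, many CD8 T cells and some intraepithelial lymphocytes of the gut. Its mouse ligands, the RAE-1 proteins (Raet1 genes), the H60 proteins and MULT1 (Ulbp1), are surface proteins that resemble MHC class I heavy chains and are known to be induced on stressed, infected or transformed cells. Binding of a ligand signals through the adaptors DAP10 (Hcst) and DAP12 (Tyrobp) and can trigger killing of the ligand-bearing cell.

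Library totals ran from 7779877 reads (TPN replicate 2) to 12084278 reads (sham replicate 3), and 1 read was worth 0.0798 to 0.119 CPM, which are reads scaled to library size with TMM factors. All 10 enterocyte markers were detected in every library. Sham replicate 2 and starvation replicate 3 stood apart in tissue makeup. The mean of the smooth muscle markers was 9.09 log2 CPM in sham replicate 2 and 4.33 to 6.22 in the other 8 libraries. Villus tip markers averaged 9.35 log2 CPM in starvation replicate 3, the highest of the 9, against 7.16 and 7.86 in the other starvation libraries. Pancreatic acinar markers summed to 15040 CPM in TPN replicate 2, 2698 CPM in sham replicate 1, 1950 CPM in starvation replicate 1 and 321 CPM in TPN replicate 1, and to 30.6 to 44.5 CPM in the other 5 libraries. Within TPN, replicate 2 differed most, with a chi-square per gene of 41.5 and 43.1 against the other TPN libraries, which differed from each other by 7.74. Against the other libraries of their own groups, starvation replicate 3 had larger values, 118 and 63.8, and so did sham replicate 2, 76.7 and 67.1.

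Raet1e and H60b lie on the same strand of one locus, and a transcript of each begins in the same exon. In the GENCODE M21 annotation (build GRCm38), Raet1e (ENSMUSG00000053219.15, a RAE-1 ligand) spans chr10:22158569-22374139 on the plus strand. H60b (ENSMUSG00000075297.10, an H60 ligand) spans chr10:22158586-22288849 inside it. The transcripts Raet1e-204 and H60b-201 share a first exon of 133 bases, chr10:22158586-22158718, which makes up 6.16% of the exon bases of Raet1e and 10.96% of those of H60b. At the other end, the last exon of Raet1e-202, 363 bases at chr10:22373777-22374139, is also the last exon of Raet1d, another RAE-1 gene that spans chr10:22360552-22374139. Raet1e-201 and Raet1d-201 matched at 96.58% of 1258 aligned bases.

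**Figure D1:**
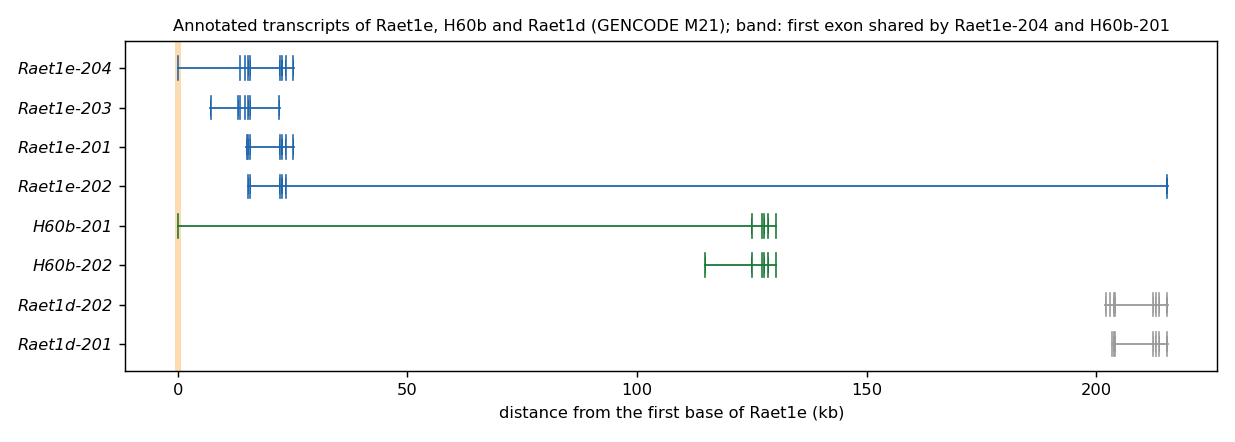
Annotated exons of Raet1e, H60b and Raet1d, drawn as distance in kb from the start of Raet1e, one row per transcript. H60b-201 shares its first exon with Raet1e-204, its other exons and all exons of H60b-202 lie inside the last intron of Raet1e-202, and the last exon of Raet1e-202 is that of Raet1d.

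The RefSeq promoters (build GRCm38.p6, 250 bases before to 50 after a start) of the locus are shown because Raet1e-204 and H60b-201 overlap in their first exon and another Raet1e start resembles that of Raet1d. The first bases of Raet1e and H60b, both on the plus strand, are at 22158569 and 22158586, and the other H60b transcript begins 114.8 kb after the first base of Raet1e. Capitals mark 3 motifs searched on both strands: the SP1 box, GGGCGG, which reads CCGCCC where it lies on the other strand, the CCAAT box, which reads ATTGG where it lies on the other strand, and the heat shock type GAANNTTC. The outer Raet1e window is chr10:22158319-22158618 (plus strand) and holds the shared first exon's start, the inner Raet1e window is chr10:22173247-22173546 (plus strand), and the Raet1d window is chr10:22361644-22361943 (plus strand).
Raet1e outer: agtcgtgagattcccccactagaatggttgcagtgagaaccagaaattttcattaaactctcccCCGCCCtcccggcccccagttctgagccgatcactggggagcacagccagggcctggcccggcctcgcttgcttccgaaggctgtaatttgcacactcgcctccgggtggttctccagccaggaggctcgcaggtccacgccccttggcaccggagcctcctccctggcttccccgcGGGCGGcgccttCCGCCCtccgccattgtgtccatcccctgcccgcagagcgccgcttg
Raet1e inner: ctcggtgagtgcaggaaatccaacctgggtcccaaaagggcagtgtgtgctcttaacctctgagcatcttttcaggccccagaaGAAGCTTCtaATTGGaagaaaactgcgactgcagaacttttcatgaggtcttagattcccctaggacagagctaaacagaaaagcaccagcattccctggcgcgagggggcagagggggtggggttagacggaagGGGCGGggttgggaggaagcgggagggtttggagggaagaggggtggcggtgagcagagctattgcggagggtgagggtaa
Raet1d: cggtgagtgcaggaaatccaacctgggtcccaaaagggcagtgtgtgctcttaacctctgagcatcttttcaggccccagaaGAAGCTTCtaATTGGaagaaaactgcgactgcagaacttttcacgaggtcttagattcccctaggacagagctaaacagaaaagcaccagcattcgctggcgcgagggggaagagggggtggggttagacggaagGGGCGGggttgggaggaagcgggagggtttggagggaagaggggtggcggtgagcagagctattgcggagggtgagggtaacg
The outer window held 3 SP1 boxes, a match present in 35.66% of 32851 RefSeq mouse promoters of the same length. The inner window held 1 SP1 box, 1 CCAAT box (in 37.41% of promoters) and 1 GAANNTTC (in 7.86% of promoters), and so did the Raet1d window. Over 298 aligned bases the inner Raet1e window and the Raet1d window differed at 3. None of the 3 windows held the TATA box TATAAA, the AP-1 motif TGANTCA, the E-box CACGTG or either of the E2F-type motifs searched, which are TTGGCGC and also TTCCCGC. Among the other genes, the Ulbp1 window held 1 CCAAT and 1 TTCCCGC (in 4.6% of promoters), the Klrk1 window 1 CCAAT and 1 TGANTCA (in 7.81% of promoters), and the H60c window none of the motifs searched. These entries were matched by symbol for Raet1e, H60c, Ulbp1 and Klrk1, and not for H60b. A match is a run of letters in the window and not a binding site.

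Raet1e, a RAE-1 ligand gene, was highest in 2 of the starved jejuna, intermediate in all TPN jejuna and lowest in sham. It had 124, 108 and 233 reads in TPN replicates 1 to 3, 549, 341 and 65 reads in starvation replicates 1 to 3, and 56, 30 and 65 reads in sham replicates 1 to 3. Scaled, these were 10.2, 12.9 and 18.7 CPM in TPN, 43.8, 36.0 and 7.52 CPM in starvation, and 5.50, 3.20 and 5.41 CPM in sham. Every TPN and every starvation library was above every sham library, whereas TPN and starvation overlapped because starvation replicate 3 lay below all TPN libraries. For starvation replicate 3 the margin over sham was small without its TMM factor of 0.763. By library total alone it had 5.74 CPM, against 5.40 CPM in sham replicate 1 and 5.38 CPM in sham replicate 3. Of the 14668 genes tested, 21.3% had every TPN library above every sham library and 13.9% had every starvation library above every sham library, so such a separation was common in these data. The means were 13.9 ± 4.32 CPM in TPN, 29.1 ± 19.1 CPM in starvation and 4.70 ± 1.30 CPM in sham (SD, n = 3 each). The log2 fold change was 1.56 ± 0.56 (SE) in TPN against sham and 2.63 ± 0.57 in starvation against sham, both of which use the same sham libraries. TPN against starvation gave -1.07 ± 0.53. In bulk tissue, more cells that express a gene and more RNA per cell cannot be told apart.

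H60b moved with Raet1e library by library. It had 105, 87 and 200 reads in TPN replicates 1 to 3, 443, 278 and 53 reads in starvation replicates 1 to 3, and 48, 30 and 51 reads in sham replicates 1 to 3. The order of the 9 libraries was the same for both genes, with starvation replicate 1 highest and sham replicate 2 lowest. The means were 11.7 ± 3.85 CPM in TPN, 23.6 ± 15.4 CPM in starvation and 4.05 ± 0.774 CPM in sham (SD, n = 3 each). Again no TPN or starvation library overlapped sham. By library total alone, however, starvation replicate 3 had 4.68 CPM of H60b against 4.63 CPM in sham replicate 1. The log2 fold change was 1.52 ± 0.55 in TPN against sham, 2.54 ± 0.56 in starvation against sham and -1.02 ± 0.52 in TPN against starvation.

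**Figure D2:**
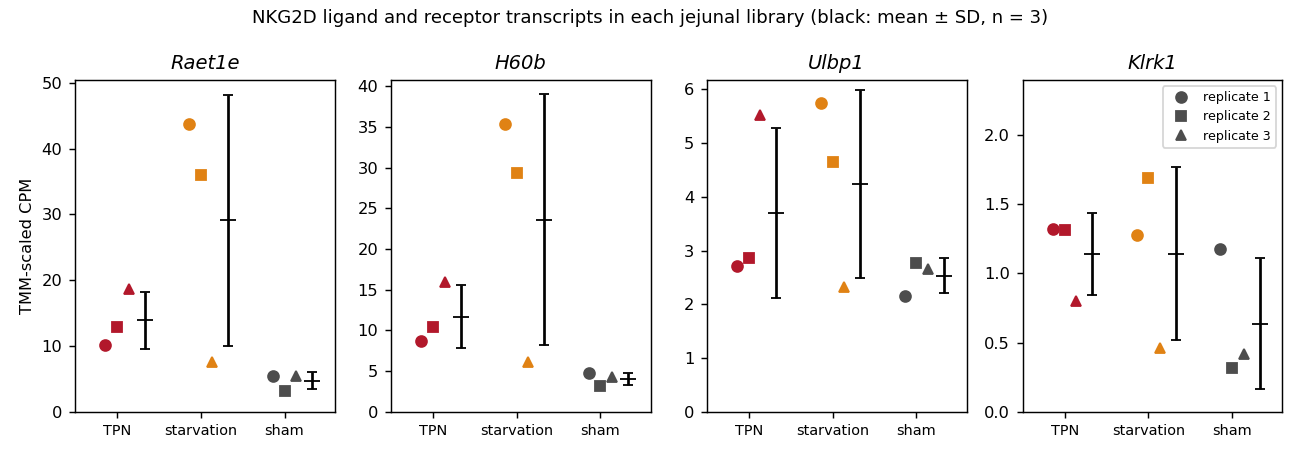
TMM-scaled CPM of Raet1e, H60b, Ulbp1 and Klrk1 (vertical axes, each with its own range) in each library of TPN, starvation and sham, with marker shape giving the replicate number and black lines the mean ± SD (n = 3). Raet1e and H60b sat above all sham libraries in both unfed groups, with starvation replicate 3 the lowest of the 6 unfed libraries.

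The ratio of H60b to Raet1e reads hardly varied. It was 0.847, 0.806 and 0.858 in TPN replicates 1 to 3, 0.807, 0.815 and 0.815 in starvation replicates 1 to 3, and 0.857, 1.00 and 0.785 in sham replicates 1 to 3. The ratio of the summed reads was 0.824 (1295 H60b and 1571 Raet1e reads), and it lay inside the 95% counting interval of each of the 9 libraries, of which the widest was 0.582 to 1.72 in sham replicate 2. These intervals cover counting error only. Of all stretches of 75 bases in H60b transcripts, 5.45% also occur in Raet1e transcripts, so most H60b sequence is not shared with Raet1e. Of the stretches in Raet1e transcripts, 31.2% also occur in Raet1d, and the sources used here do not say how the authors' counting treated such reads. Both genes were therefore counted with some uncertainty, Raet1e more than H60b.

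**Figure D3:**
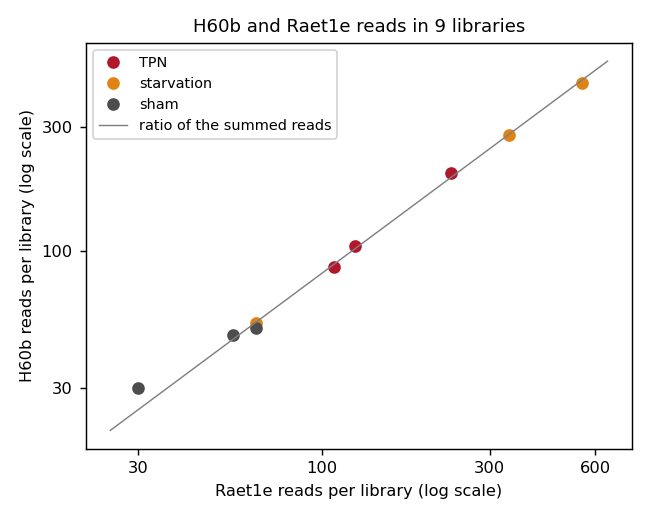
H60b reads against Raet1e reads in each of the 9 libraries, both on log axes, coloured by group, with a line at the ratio of the summed reads (0.824). All groups fall along one line, and starvation replicate 3 lies beside the sham libraries.

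Per kb of exon, which allows levels to be compared between genes, H60b and Raet1e were the highest ligands. H60b had 9.63 ± 3.18 CPM per kb in TPN, 19.5 ± 12.7 CPM per kb in starvation and 3.34 ± 0.638 CPM per kb in sham. Raet1e had 6.45 ± 2.00 CPM per kb in TPN, 13.5 ± 8.85 CPM per kb in starvation and 2.18 ± 0.603 CPM per kb in sham. The per kb values of these 2 genes overlapped between libraries in TPN and in starvation and did not in sham, and they are not ranked here because 34.25% of the 75-base stretches of Raet1e and 5.45% of those of H60b are shared with another gene and the counting of such reads is unknown. Ulbp1 was far lower, at 0.550 ± 0.235 CPM per kb in TPN, 0.630 ± 0.260 CPM per kb in starvation and 0.377 ± 0.0488 CPM per kb in sham. Klrk1 was the lowest gene tested, at 0.159 ± 0.0413 CPM per kb in TPN, 0.159 ± 0.0869 CPM per kb in starvation and 0.0888 ± 0.0654 CPM per kb in sham.

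The libraries highest in Raet1e and H60b, starvation replicates 1 and 2 and TPN replicate 3, were also highest in the mean of the B and plasma cell markers. The other libraries did not follow one order: TPN replicate 1 was below sham replicates 1 and 3 in these markers and above them in Raet1e. The 9 B and plasma cell markers averaged 4.12, 5.18 and 5.46 log2 CPM in TPN replicates 1 to 3, 6.34, 6.03 and 2.79 log2 CPM in starvation replicates 1 to 3, and 4.36, 3.13 and 4.20 log2 CPM in sham replicates 1 to 3. Summed, they came to 1948 to 2316 CPM in TPN, 888 to 1898 CPM in starvation and 1411 to 2446 CPM in sham, and 8 of the 9 had reads in every library. Against sham, 8 had a positive and 1 a negative log2 fold change in TPN, and 6 a positive and 3 a negative one in starvation. By edgeR 0 passed in either comparison. Ms4a1, the B cell antigen CD20, had 6, 49 and 239 reads in TPN, 768, 409 and 4 reads in starvation, and 5, 4 and 10 reads in sham. TPN replicate 1 and starvation replicate 3, with 6 and 4 Ms4a1 reads, had 10.2 and 7.52 CPM of Raet1e, against 3.20 to 5.50 CPM in sham libraries with 4 to 10 Ms4a1 reads. With the mean of the B and plasma cell markers as a covariate, a fit added after seeing these values, the log2 fold change of Raet1e was 0.87 ± 0.18 in TPN against sham, 1.53 ± 0.18 in starvation against sham and -0.66 ± 0.16 in TPN against starvation. That of H60b was 0.84 ± 0.21 in TPN against sham, 1.46 ± 0.22 in starvation against sham and -0.62 ± 0.19 in TPN against starvation. Both genes kept their sign in that fit at a smaller size. The comparison at few Ms4a1 reads rests on 1 TPN and 1 starvation library. The part of B cell content in these differences was not tested beyond that fit.

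Villus tip markers averaged 7.16, 6.79 and 7.10 log2 CPM in TPN, 7.16, 7.86 and 9.35 log2 CPM in starvation, and 7.80, 8.72 and 7.82 log2 CPM in sham. All TPN libraries were thus below all sham libraries. With this mean as a covariate, the log2 fold change in TPN against sham was 0.39 ± 0.36 for Raet1e and 0.40 ± 0.40 for H60b. Starvation against sham then gave 2.36 ± 0.29 for Raet1e and 2.26 ± 0.32 for H60b. In TPN against starvation it was -1.97 ± 0.32 for Raet1e and -1.86 ± 0.36 for H60b, over 1.5 times the values without the covariate. The part of villus composition in these differences was not tested beyond that fit.

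**Figure D4:**
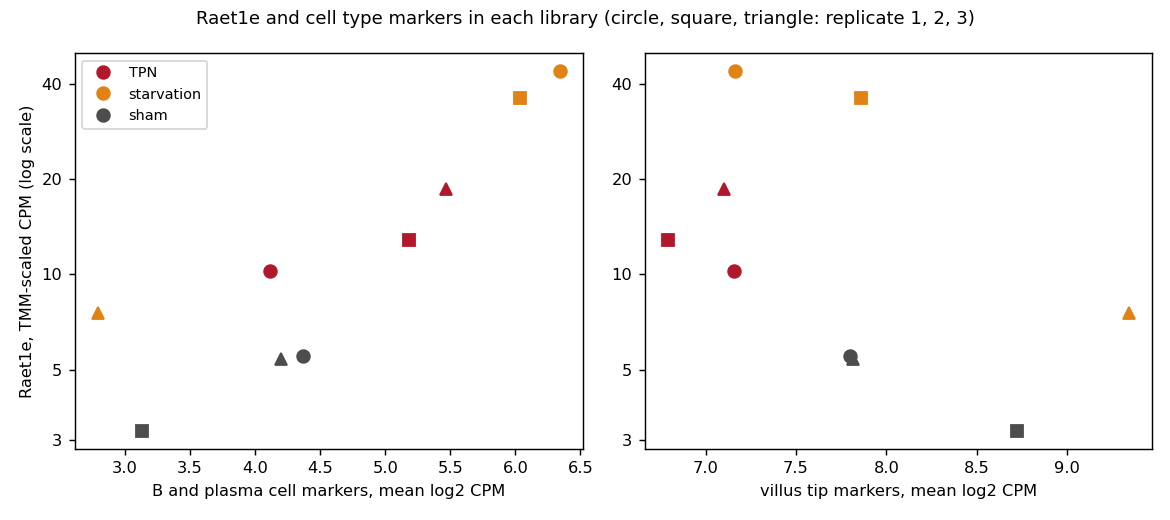
Raet1e in TMM-scaled CPM (vertical axes, log scale) against the mean log2 CPM of the B and plasma cell markers (left) and of the villus tip markers (right) in each library, coloured by TPN, starvation and sham, with marker shape giving the replicate number. Starvation replicates 1 and 2 were highest in Raet1e and in B and plasma cell markers, and starvation replicate 3 was lowest in B and plasma cell markers and highest in villus tip markers.

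Ulbp1 (ENSMUSG00000079685.10, chr10:7440362-7473638, minus strand), which encodes MULT1, differed less between groups than Raet1e and H60b. It had 33, 24 and 69 reads in TPN replicates 1 to 3, 72, 44 and 20 reads in starvation replicates 1 to 3, and 22, 26 and 32 reads in sham replicates 1 to 3. TPN replicate 3 and starvation replicates 1 and 2 were high, and the other unfed libraries lay within or near the sham range, so the groups overlapped. The means were 3.70 ± 1.58 CPM in TPN, 4.23 ± 1.75 CPM in starvation and 2.53 ± 0.328 CPM in sham (SD, n = 3 each). The log2 fold change was 0.55 ± 0.43 in TPN against sham, 0.75 ± 0.43 in starvation against sham and -0.19 ± 0.42 in TPN against starvation. Without TPN replicate 3, the first of these was 0.14, and with the villus tip covariate it was 0.088. The 3 libraries high in Ulbp1 were also the 3 highest in Raet1e, in H60b and in the B and plasma cell markers. With the B and plasma cell covariate the log2 fold change of Ulbp1 was 0.18 ± 0.38 in TPN against sham and 0.26 ± 0.39 in starvation against sham.

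H60c (ENSMUSG00000091618.3, chr10:3256208-3267771, minus strand), an H60 ligand gene, was barely detected. It had 0 reads in all TPN libraries, 1 read in starvation (replicate 3) and 3 reads in sham (all in replicate 2). A count of 0 over the TPN libraries allows up to 0.0909 CPM at the level of 3 reads (0.112 CPM by the exact 95% interval), so no difference in H60c could be seen at this depth. Among 5 other ligand genes looked up (Raet1a, Raet1b, Raet1c, Raet1d and H60a), Raet1d had a row in the table. Raet1d had 0, 1 and 2 reads in TPN replicates 1 to 3, 2, 1 and 0 reads in starvation replicates 1 to 3, and 0 reads in every sham library. It was too low to be tested, and 44.1% of the 75-base stretches of its transcripts also occur in Raet1e.

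Klrk1 (ENSMUSG00000030149.15, chr6:129610323-129623864, minus strand), the receptor gene, was near the detection limit in every library. It had 16, 11 and 10 reads in TPN replicates 1 to 3, 16, 16 and 4 reads in starvation replicates 1 to 3, and 12, 3 and 5 reads in sham replicates 1 to 3. Starvation replicate 3 and sham replicates 2 and 3 were low, and all groups overlapped. The means were 1.14 ± 0.297 CPM in TPN, 1.14 ± 0.624 CPM in starvation and 0.638 ± 0.470 CPM in sham (SD, n = 3 each). The log2 fold change was 0.82 ± 0.65 in TPN against sham, 0.84 ± 0.65 in starvation against sham and -0.02 ± 0.62 in TPN against starvation. From the summed reads alone, 37 in TPN against 20 in sham, the ratio of CPM values was 1.77 with a 95% counting interval of 1.00 to 3.22, before any spread between libraries. For 36 reads in starvation against 20 in sham it was 1.85 with an interval of 1.05 to 3.38. Without sham replicate 1, the log2 fold change was 1.59 in TPN against sham and 1.60 in starvation against sham. Sham replicate 2, the library high in smooth muscle markers, had the fewest Klrk1 reads. With the mean of the smooth muscle markers as a covariate the log2 fold change in TPN against sham was -0.11, and with the villus tip markers it was 0.010, so its direction was not stable. None of the 75-base stretches of Klrk1 transcripts occurs in another gene.

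**Figure D5:**
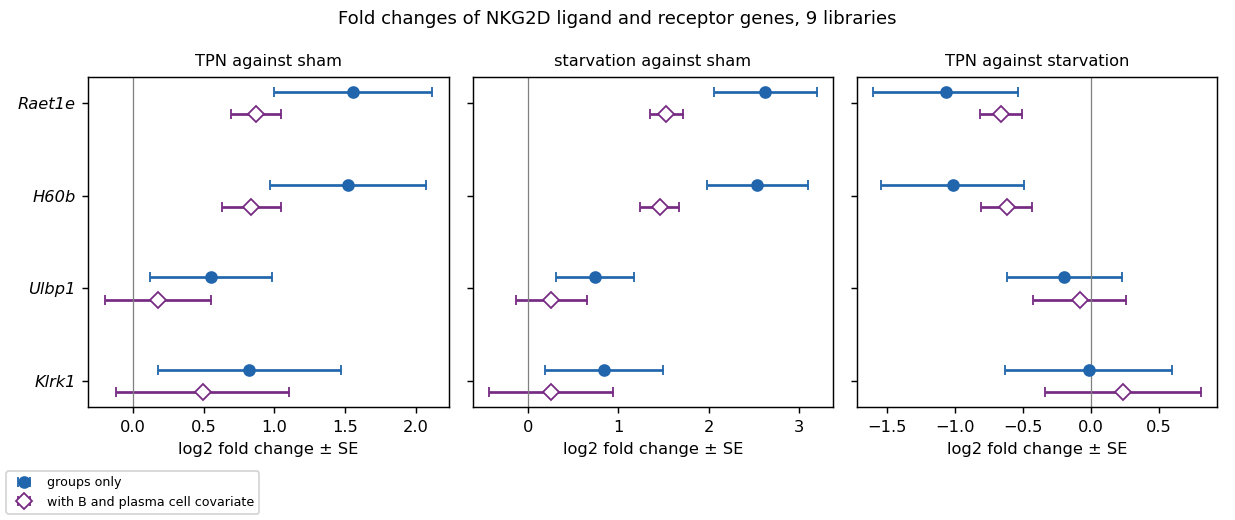
Log2 fold change ± SE (horizontal axes, each panel with its own range) of the 4 genes tested, in TPN against sham, starvation against sham and TPN against starvation, from the fit with groups only and from the fit with the B and plasma cell covariate. Raet1e and H60b were on the positive side against sham in both fits, and the bars of Ulbp1 and Klrk1 reached 0 in the fit with the covariate.

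T cell and intraepithelial lymphocyte markers, all 25 detected in every library, averaged 3.13 to 3.18 log2 CPM in TPN, 3.02 to 3.60 log2 CPM in starvation and 2.87 to 2.90 log2 CPM in sham, so that every TPN and starvation library was above every sham library. Their summed level was 386 to 404 CPM in TPN, 408 to 470 CPM in starvation and 339 to 387 CPM in sham. By edgeR's quasi-likelihood test, 1 of these 25 genes passed an adjusted p of 0.05 in TPN against sham, where 8.6% of the 14668 genes tested did (3.48% higher and 5.12% lower), and 1 in starvation against sham, where 3.69% did (2.55% higher and 1.14% lower). Under starvation 21 of the 25 had a positive log2 fold change against sham (median 0.39 against -0.01 over all genes). Of the 25, 9 had an unadjusted p under 0.05, 3 passed DESeq2 and 1 limma voom. Of all 14668 genes, 3430 had an unadjusted p under 0.05 in that comparison, 1654 passed DESeq2 and 444 limma voom. In TPN against sham 18 of the 25 were positive (median 0.25), 2 had an unadjusted p under 0.05, 1 passed DESeq2 and 1 limma voom. There 3939 of all 14668 genes had an unadjusted p under 0.05, 2421 passed DESeq2 and 1247 limma voom. In both comparisons the edgeR call among the 25 was Gimap3, a GTPase of lymphocytes, named after its values were seen. Its log2 fold change was 0.62 ± 0.14 in TPN against sham (adjusted p = 0.0258) and 1.28 ± 0.14 in starvation against sham (adjusted p = 0.00577). The first call was lost without sham replicate 1 or 3, any TPN library or starvation replicate 2 (adjusted p = 0.052 to 0.111). Cd3e, a T cell receptor chain, averaged 15.4 ± 3.49 CPM in TPN, 16.7 ± 2.35 CPM in starvation and 13.8 ± 2.36 CPM in sham. Of 8 NK and ILC1 markers tested, 0 passed edgeR in either comparison against sham, with 2 at an unadjusted p under 0.05 in TPN and 1 in starvation, 1 by DESeq2 in each and 0 by limma voom.

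Most signalling partners of the receptor did not pass the test in any comparison. Hcst, the DAP10 adaptor, averaged 2.09 ± 0.475 CPM in TPN, 3.02 ± 0.807 CPM in starvation and 2.19 ± 0.045 CPM in sham, a log2 fold change of -0.06 ± 0.36 in TPN against sham (adjusted p = 0.93, edgeR) and 0.47 ± 0.36 in starvation against sham (adjusted p = 0.457). Tyrobp, the DAP12 adaptor, averaged 2.28 ± 0.424 CPM in TPN, 2.97 ± 0.902 CPM in starvation and 2.11 ± 0.318 CPM in sham. Of 19 adaptor and signalling genes tested, 1 rose in TPN against sham and none fell (5.26%, where 8.6% of all genes passed). The list median log2 fold change was 0.28 against -0.02 over all genes. The one that rose was Lcp2, the adaptor SLP-76, at 18.7 ± 2.25 CPM in TPN against 7.69 ± 1.67 CPM in sham, a log2 fold change of 1.28 ± 0.27 (adjusted p = 0.0226, edgeR). It did not hold without sham replicate 1 or 3 or any TPN library (log2 fold change 1.17 to 1.34, adjusted p = 0.0747 to 0.106). In starvation against sham 0 of the 19 passed edgeR, with a median of 0.50 against -0.01 over all genes. Of the 19, 9 had an unadjusted p under 0.05, 2 passed DESeq2 and 0 passed limma voom. Of all 14668 genes, these were 3430, 1654 and 444. In TPN against starvation, where 5.84% of all genes passed (1.94% higher and 3.9% lower), 0 of the 19 passed edgeR. There 4 had an unadjusted p under 0.05, 2 passed DESeq2 and 0 limma voom, against 3385, 1791 and 832 of all 14668 genes.

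Genes of killing did not pass in any comparison of the main fit. Of 14 cytotoxic effector genes tested, 0 passed edgeR in TPN against sham, in starvation against sham or in TPN against starvation. In the same order, 1, 0 and 0 had an unadjusted p under 0.05, against 3939, 3430 and 3385 of all 14668 genes. By DESeq2 or limma voom 0 passed in each. Gzmb, the protease granzyme B, averaged 44.9 ± 4.04 CPM in TPN, 50.3 ± 37.5 CPM in starvation and 92.9 ± 23.4 CPM in sham (adjusted p = 0.154 for TPN against sham, edgeR), and it passed against sham in 3 of 22 alternatives in TPN and in 3 of 22 in starvation, in each case without starvation replicate 3 among them. Prf1, the pore-forming protein perforin, averaged 4.94 ± 2.00 CPM in TPN, 3.69 ± 0.0168 CPM in starvation and 3.76 ± 1.03 CPM in sham. Gzma, granzyme A, averaged 63.2 ± 18.1 CPM in TPN, 62.9 ± 46.8 CPM in starvation and 90.2 ± 46.9 CPM in sham. In starvation against sham and in TPN against starvation it passed in 1 of 22 alternatives each, that with the villus tip covariate.

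Klrk1 sits among other lectin-like receptor genes in the NK gene complex on chromosome 6. Of 26 lectin-like genes of this complex looked up, Clec2 genes as well as Klr receptor genes, 13 were tested. In TPN against sham 0 passed edgeR, with a median log2 fold change of 0.94. At an unadjusted p under 0.05 there were 3 (3939 of all 14668 genes), by DESeq2 1 (2421) and by limma voom 0 (1247). Against sham, 1 rose in starvation (7.69%, where 3.69% of all genes passed), with a list median of 1.24. Of the 13, 9 had an unadjusted p under 0.05, 3 passed DESeq2 and 0 limma voom, against 3430, 1654 and 444 of all 14668 genes. The gene that rose was Clec2i, a C-type lectin-like protein gene and not a Klr receptor gene. It averaged 7.89 ± 4.25 CPM in starvation against 1.95 ± 0.257 CPM in sham (log2 fold change 2.02 ± 0.46, adjusted p = 0.0464, edgeR). The call was lost without any single library other than starvation replicate 3 (adjusted p = 0.0809 to 0.133), and by limma voom its adjusted p was 0.0912. Clec2i was also lower in TPN, at 2.15 ± 0.451 CPM, than in starvation (log2 fold change -1.87 ± 0.46, adjusted p = 0.0442), a call lost without 7 of the 9 single libraries, sham replicate 2 and starvation replicate 3 being the exceptions (adjusted p = 0.073 to 0.18), and with limma voom (adjusted p = 0.086). Klrd1, the CD94 chain that pairs with NKG2A and lies 11.6 kb from Klrk1, had 12.4, 8.46 and 12.3 CPM in TPN, 6.38, 6.97 and 18.0 CPM in starvation, and 5.30, 6.72 and 3.58 CPM in sham. Klrd1 in TPN did not overlap sham, but it did not pass (log2 fold change 1.09 ± 0.43, adjusted p = 0.14, edgeR), although it passed in 5 of 22 alternatives, one of them without starvation replicate 3, and in starvation it was highest in replicate 3, where Klrk1 was lowest. Klrc1, which encodes NKG2A, was too low to be tested, with 9, 5 and 11 reads in TPN, 0, 3 and 0 reads in starvation, and 3, 10 and 2 reads in sham. So was Ncr1, an NK cell receptor, with 0 to 11 reads a library.

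Of 18 cytokine and cytokine receptor genes tested, 0 passed edgeR in any comparison. An unadjusted p under 0.05 was reached by 2, 5 and 3 in TPN against sham, starvation against sham and TPN against starvation. Of all 14668 genes it was reached by 3939, 3430 and 3385. By DESeq2 2, 2 and 1 passed, against 2421, 1654 and 1791 of all genes, and by limma voom 0 in each. Il15, the cytokine that sustains NK cells and intraepithelial lymphocytes and raises NKG2D on them, averaged 50.9 ± 10.9 CPM in TPN, 79.8 ± 49.99 CPM in starvation and 29.6 ± 2.78 CPM in sham. Its log2 fold change was 0.78 ± 0.37 in TPN against sham (adjusted p = 0.213, edgeR) and 1.43 ± 0.38 in starvation against sham (adjusted p = 0.0691). It passed in starvation against sham in 7 of 22 alternatives, DESeq2 and the fits without starvation replicate 1 or 3 among them, and in TPN against sham in 5 of 22, one of them without starvation replicate 3. Il15ra, which presents IL-15, averaged 20.7 ± 1.96 CPM in TPN, 22.1 ± 3.19 CPM in starvation and 12.6 ± 5.60 CPM in sham (adjusted p = 0.189 in TPN and 0.17 in starvation against sham, edgeR). Il2rb, a receptor chain for IL-2 and IL-15, averaged 16.8 ± 1.92 CPM in TPN, 25.3 ± 7.25 CPM in starvation and 27.5 ± 3.83 CPM in sham (adjusted p = 0.0761 for TPN against sham, which passed in 4 of 22 alternatives, DESeq2 and the fit without starvation replicate 3 among them).

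DNA damage is a known inducer of NKG2D ligands in mouse and human cells, and 29 DNA damage and p53 genes were tested. In TPN against sham 2 rose and 2 fell (13.8%, where 8.6% of all genes passed). Of the 29, 20 had a positive and 9 a negative log2 fold change, with a median of 0.18. Among the negative ones that did not pass were Cdkn1a (-0.31 ± 0.36), Mdm2 (-0.33 ± 0.25), Sesn1 (-0.50 ± 0.17) and Phlda3 (-1.47 ± 0.52). Pmaip1, the p53 target Noxa, averaged 369 ± 40.4 CPM in TPN against 63.3 ± 14.5 CPM in sham (log2 fold change 2.54 ± 0.50, adjusted p = 0.0168, edgeR), a call lost without sham replicate 1 or 3 or any TPN library (adjusted p = 0.0558 to 0.0722). Gadd45b, a stress response gene, averaged 26.6 ± 6.30 CPM in TPN against 15.3 ± 1.67 CPM in sham (log2 fold change 0.79 ± 0.20, adjusted p = 0.0429). The call of Gadd45b was lost without any single sham or TPN library or starvation replicate 2 (adjusted p = 0.0694 to 0.168). Atrip, the partner of the kinase ATR, fell to 21.9 ± 0.275 CPM in TPN, against 40.8 ± 9.54 CPM in sham (log2 fold change -0.90 ± 0.17, adjusted p = 0.0157), a call lost without any single TPN library (adjusted p = 0.0752 to 0.0821).

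In starvation against sham, 1 of these 29 rose and none fell (3.45%, where 3.69% of all genes passed). The gene was Pmaip1, at 281 ± 224 CPM in starvation against 63.3 ± 14.5 CPM in sham (log2 fold change 2.15 ± 0.49, adjusted p = 0.0464, edgeR). Its call was lost without any single library other than starvation replicates 1 and 3 (adjusted p = 0.0846 to 0.13). In TPN against starvation, 2 of the 29 passed (6.90%, against 5.84% of all genes). The p53 target Ccng1 was higher (log2 fold change 0.72 ± 0.16, adjusted p = 0.0363) and the p53 target Sesn1 lower (-1.07 ± 0.17, adjusted p = 0.00968). The Sesn1 call was lost without any single TPN library (adjusted p = 0.052 to 0.0648), and the Ccng1 call without any single library other than sham replicate 2 and starvation replicate 3 (adjusted p = 0.062 to 0.149).

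Of 24 genes listed as regulators of ligand transcription or shedding, 2 fell and none rose in TPN against sham (8.33%, where 8.6% of all genes passed). Hdac3, a histone deacetylase, averaged 21.6 ± 0.627 CPM in TPN against 37.4 ± 1.67 CPM in sham (log2 fold change -0.79 ± 0.12, adjusted p = 0.00783, edgeR), and was lost without TPN replicate 2 or 3 (adjusted p = 0.0508 to 0.0528). E2f3, a cell cycle transcription factor of a family known to drive RAE-1 genes in mouse, averaged 24.5 ± 2.33 CPM in TPN against 36.5 ± 1.97 CPM in sham (adjusted p = 0.036), and was lost without any single sham or TPN library or starvation replicate 2 (adjusted p = 0.0501 to 0.148). In starvation against sham Mmp9, a matrix metalloproteinase, fell to 14.9 ± 5.17 CPM in starvation, against 34.8 ± 5.39 CPM in sham (log2 fold change -1.23 ± 0.24, adjusted p = 0.0312). That call was lost without sham replicate 1 or 3, any TPN library or starvation replicate 1 (adjusted p = 0.0665 to 0.101). In TPN against starvation Mmp9 was higher (log2 fold change 1.23 ± 0.24, adjusted p = 0.0203) and Hdac3 lower (-0.78 ± 0.12, adjusted p = 0.0104), both calls being lost without any single TPN library (adjusted p = 0.0689 to 0.0971 for Mmp9 and 0.0567 to 0.068 for Hdac3).

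MHC class I molecules can inhibit NK cells. Among class I genes and genes of their peptide loading, those that passed the test were lower in TPN than in sham. The class I genes H2-K1 (log2 fold change -0.92 ± 0.38, adjusted p = 0.162, edgeR) and H2-D1 (-0.87 ± 0.31, adjusted p = 0.109) did not pass in TPN against sham. Of 25 class I, class I-like and related genes tested, 5 fell and none rose in TPN against sham (20%, where 8.6% of all genes passed and 5.12% fell). The list median log2 fold change was -0.65. Tap1, a subunit of the peptide transporter that loads class I molecules, averaged 48.9 ± 4.40 CPM in TPN against 111 ± 15.9 CPM in sham (log2 fold change -1.18 ± 0.15, adjusted p = 0.00313, edgeR). Its call held without each of the 9 libraries in turn and with the villus tip covariate (-1.13, adjusted p = 0.00414). H2-Q1, a class I gene, averaged 183 ± 28.9 CPM in TPN against 484 ± 6.59 CPM in sham (log2 fold change -1.41 ± 0.28, adjusted p = 0.0194). Tap2, the other transporter subunit, averaged 41.6 ± 1.87 CPM in TPN against 75.6 ± 10.8 CPM in sham (adjusted p = 0.0388), and Tapbpl, a class I peptide editor, 26.6 ± 1.64 CPM in TPN against 44.2 ± 4.56 CPM in sham (adjusted p = 0.0375). The fifth, H2-T22, a class I-like gene named after its values were seen, averaged 54.0 ± 4.27 CPM in TPN against 101 ± 22.5 CPM in sham (adjusted p = 0.048). These calls were lost without sham replicate 1 or 3 or any TPN library, and those of Tap2, Tapbpl and H2-T22 also without starvation replicate 2, those of Tap2 and H2-T22 also without sham replicate 2. The adjusted p in those fits was 0.0539 to 0.0983 for H2-Q1, 0.0528 to 0.138 for Tap2, 0.0558 to 0.14 for Tapbpl and 0.0777 to 0.172 for H2-T22. Epithelial markers moved with these genes. The 10 enterocyte markers averaged 10.1 to 10.3 log2 CPM in TPN and 11.0 to 11.2 log2 CPM in sham, with 10.5 to 11.8 log2 CPM in starvation, and villus tip markers were also lower in every TPN library than in any sham library. With the villus tip covariate, the calls of Tap2 (-0.59, adjusted p = 0.0887) and Tapbpl (-0.57, adjusted p = 0.078) were lost in TPN against sham, and H2-Q1 (-0.93, adjusted p = 0.013) was kept.

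In starvation against sham 0 of these 25 passed edgeR (3 at an unadjusted p under 0.05, 1 by DESeq2, 0 by limma voom), with a median log2 fold change of -0.22. Of all 14668 genes, 3430 had an unadjusted p under 0.05, 1654 passed DESeq2 and 444 limma voom. In TPN against starvation Tap1 (-0.75 ± 0.15, adjusted p = 0.0199, edgeR) and H2-Q1 (-1.22 ± 0.28, adjusted p = 0.038) were lower. The Tap1 call was lost without any single TPN library (adjusted p = 0.0835 to 0.115), and the H2-Q1 call without those, sham replicate 1 or 3 or starvation replicate 2 (adjusted p = 0.0618 to 0.163). H2-T3, the thymus leukaemia antigen of gut epithelium, averaged 157 ± 14.1 CPM in TPN, 219 ± 64.3 CPM in starvation and 273 ± 33.1 CPM in sham, with an adjusted p of 0.0505 in TPN against sham (edgeR). H2-T3 passed there in 10 of 22 alternatives, among them DESeq2 (adjusted p = 0.0101), limma voom (adjusted p = 0.0443) and the fits without starvation replicate 1 or 3. B2m, the light chain of class I molecules, averaged 646 ± 74.1 CPM in TPN, 712 ± 286 CPM in starvation and 983 ± 169 CPM in sham (adjusted p = 0.208 in TPN against sham), and with the villus tip covariate its log2 fold change in TPN against sham was -0.032, against -0.61 without it. H2-T23, a class I-like gene that presents leader peptides to CD94 receptors, gave -0.68 ± 0.34 in TPN against sham (adjusted p = 0.229) and 0.0097 with that covariate. In starvation against sham the covariate gave -0.53 for B2m (adjusted p = 0.0131, edgeR) and -0.48 for H2-T23 (adjusted p = 0.0252). B2m and H2-T23 each passed there in 3 of 22 alternatives, the fit without starvation replicate 3 among them. H2-T3 did not pass there with the covariate (-0.37, adjusted p = 0.133).

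Over all pathway lists, 12 of 142 genes tested passed in TPN against sham (8.45%, against 8.6% of all genes), 3 in starvation against sham (2.11%, against 3.69%) and 7 in TPN against starvation (4.93%, against 5.84%). In the main fit the share of pathway genes that passed was thus near that of all genes or below it. This did not hold in every alternative. With the villus tip covariate, 33 of the 142 passed in starvation against sham, a larger share than the 2521 of all 14668 genes. By limma voom 1 of the 142 passed there, a smaller share than the 444 of all genes. Without starvation replicate 3, 34 pathway genes and 1739 of all genes passed there.

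The genes whose levels ran closest to each NKG2D gene over the 9 libraries were found among 13144 genes by Pearson's r of log2 CPM, as a description in which all points share library and depth. For Raet1e they were H60b (r = 0.997, the overlapping gene), Mal (0.990), Stap1 (0.987), Dock2 (0.986) and Chd6 (0.985). For H60b they were Raet1e, Stap1 (0.985), Dock2 (0.984), Mal (0.983) and Gimap8 (0.983). Dock2, a guanine nucleotide exchange factor of leukocytes, averaged 9.03 CPM in TPN, 15.4 CPM in starvation and 4.34 CPM in sham. Stap1, a signalling adaptor of B cells, averaged 4.97 CPM in TPN, 8.90 CPM in starvation and 2.19 CPM in sham. For Ulbp1 the closest were Srgap3 (0.928), Ms4a1 (0.925), Cd83 (0.923), Tut4 (0.916) and Arhgap15 (0.915), and for Klrk1 they were Fancl (0.949), Nufip1 (0.943), Akap11 (0.940), Csrnp2 (0.923) and Mrpl42 (0.923). Klrk1 rests on 3 to 16 reads a library, so its list is the least certain.

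The tested genes flanking the Raet1e and H60b locus on chromosome 10 did not pass. E030030I06Rik, 9.30 kb before Raet1e, averaged 6.06 CPM in TPN, 3.92 CPM in starvation and 2.87 CPM in sham, a log2 fold change of 1.06 ± 0.49 in TPN against sham (adjusted p = 0.196, edgeR) and 0.44 ± 0.49 in starvation against sham (adjusted p = 0.626). Slc2a12, a sugar transporter gene on the other side, gave 0.37 ± 0.42 in TPN against sham (adjusted p = 0.599) and 0.10 ± 0.42 in starvation against sham (adjusted p = 0.916). Iyd, an iodotyrosine deiodinase gene 272.5 kb from H60c on chromosome 10, averaged 8.86 CPM in TPN, 31.2 CPM in starvation and 24.1 CPM in sham. It was lower in TPN than in sham (log2 fold change -1.44 ± 0.29, adjusted p = 0.0192) and than in starvation (-1.81 ± 0.29, adjusted p = 0.0111). The Iyd call against sham was lost without sham replicate 1 or 3 or any TPN library (adjusted p = 0.06 to 0.0919), and that against starvation without any single TPN library (adjusted p = 0.0567 to 0.068). On the same chromosome, Ipcef1, 388 kb from Ulbp1, averaged 13.9 CPM in TPN, 14.2 CPM in starvation and 6.36 CPM in sham and passed in both comparisons against sham (log2 fold change 1.13 ± 0.27, adjusted p = 0.0343 in TPN, and 1.16 ± 0.27, adjusted p = 0.0465 in starvation). Its call in TPN was lost without sham replicate 2 or 3, any TPN library or starvation replicate 2 (adjusted p = 0.061 to 0.121), and that in starvation without any single library other than starvation replicate 3 (adjusted p = 0.0687 to 0.139).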

How the data were processed

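The deposited table holds counts of reads per gene symbol, made by the authors; the submitters' processing notes list the tools STAR 2.7.2e, cutadapt 2.9, FastQC 0.11.8, DESeq2 1.32.0 and featureCounts 2.0.0, and builds GRCm38 and mm10. The sources used here do not give the annotation release, the strand setting or the treatment of reads shared between genes. The labels' protocols describe oligo(dT) selection and name no strand-marking step. A further 9 columns matched no sample and were not used.

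Groups came from the labels. From the counts, edgeR 4.0.16 (R 4.3.3) kept 14668 genes with filterByExpr, scaled by TMM and fitted a quasi-likelihood model of 3 group means to all 9 libraries; calls had a Benjamini-Hochberg adjusted p under 0.05. SE is the log2 fold change over the square root of F. DESeq2 1.42.0, limma voom 3.58.1 and other scalings, filters and covariates were alternatives. Only the main edgeR fit, for TPN against sham, was also run on simulated data. Correlations used a prior count of 2 and genes with a mean log2 CPM of at least 1. Named genes were the 5 members, up to 4 passing genes per list, direction and comparison, a set of pathway genes named whatever their values, and the 5 genes most alike each member. Counting intervals are exact, at 95%. Results for a few genes are not reported here. The genes, lists and rules were chosen with earlier results of these data known.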

Additional observations from a re-analysis of the deposited data

How the results depend on the processing

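The log2 fold changes of Raet1e and H60b kept their sign against sham in every alternative run. Those of Klrk1 did not: with a smooth muscle covariate it was -0.11 in TPN against sham. With a villus tip covariate, TPN against sham gave 0.39 for Raet1e, 0.40 for H60b, 0.088 for Ulbp1 and 0.010 for Klrk1, and TPN against starvation gave -0.75 for Klrk1. With the B and plasma cell covariate, chosen after seeing the data, Raet1e gave 0.87 and 1.53, H60b 0.84 and 1.46 in TPN and starvation against sham, and Ulbp1 0.26 in starvation against sham. Leaving out 1 library at a time, TPN against sham ranged over 1.29 to 1.74 for Raet1e, 1.22 to 1.70 for H60b, 0.14 to 0.73 for Ulbp1 and 0.52 to 1.59 for Klrk1. Starvation against sham ranged over 2.21 to 3.05, 2.13 to 2.96, 0.46 to 1.01 and 0.47 to 1.60 for the same genes. Over the 4 genes, 251 values stayed within the spread between replicates and 13 moved beyond it. The cause was not tested.

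Counts of calls moved far more. Genes called in TPN against sham were 1261, and 2421 by DESeq2, 2774 with only the 2 groups fitted, 556 with the replicate number as a block (replicate block), 434 with smooth muscle as a covariate, 2003 with the villus tip covariate, 2139 with the B and plasma cell covariate, 4425 without both sham replicate 2 and starvation replicate 3, and 258 at an adjusted p under 0.01. In the same settings, pathway genes called were 12, and 22, 32, 6, 3, 25, 21, 47 and 2. In starvation against sham, genes called were 541, and 1654 by DESeq2, 353 by library totals, 2 with 2 groups, 71 with the block, 206 with smooth muscle, 2521 with villus tip, 2541 with B and plasma cells, 2949 without both libraries and 30 at 0.01. Pathway genes called there were 3, and 14 by DESeq2, 1 by limma voom, 0 with 2 groups, 0 with the block, 1 with smooth muscle, 33 with villus tip, 23 with B and plasma cells, 43 without both libraries and 0 at 0.01. In TPN against starvation, genes called were 857, and 1791 by DESeq2, 545 with 2 groups, 386 with the block, 1292 with villus tip, 2912 with B and plasma cells, 3205 without both libraries and 144 at 0.01. Pathway genes called were 7, and 18, 4, 3, 20, 32, 41 and 1 in the same settings. Without 1 library at a time, genes called ranged from 216 to 3182, 32 to 1739 and 124 to 1248 in TPN against sham, starvation against sham and TPN against starvation, and pathway genes from 1 to 34, 0 to 34 and 0 to 14. The highest counts against sham came without starvation replicate 3. The cause was not tested.

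Of 21 calls on pathway genes taken by the rule for named genes, 20 were lost without at least 1 library, and Tap1 in TPN against sham was kept. The replicate block ended 12 of them, library totals 10, the smooth muscle covariate 10, 2 groups only 6, the villus tip covariate 6, limma voom 4, upper quartile scaling 3 and no filter 1. Named genes outside those calls passed in 54 fits, 11 of them without starvation replicate 3, 11 without both libraries and 9 with the villus tip covariate. Same-numbered libraries deviated from their group means with correlations of -0.30 to 0.38, so the numbers are not shown to pair the samples. Gzma in TPN against sham turned to 0.74 with the villus tip covariate, and Gzmb in TPN against starvation to 1.03 with it and 0.69 without both libraries. With 3 to 16 reads of Klrk1 and at most 3 of H60c a library, depth limits what can be said of both.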
